A study of Homo sapiens with 3 samples.

Results

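The metallothionein genes, MT2A, MT1X, MT1E, MT1G, MT1H, MT1F and MT1M, were followed through the formation of human chambered cardiac organoids (CCOs), by day and by cell group. They are 7 of the 32738 genes in the deposited table and 7 of the 12 metallothionein genes it lists. The genes were listed by name after an earlier look at these data in which MT2A was lower at day 14 (D14) than at day 8 (D8) in every cell class, so the levels of D8 against D14 chose them and are given as a description. The D21 levels and the other genes of the same cells did not enter that choice. The make-up of the family, the spread over cells and the ratios of D21 over D14 use D8 or D14 counts of the members. They are therefore descriptions as well. Of the 5 metallothionein genes outside the list, MT3 had 145 UMIs over all deposited barcodes, MT1A 24, MT1HL1 6, MT1B 3 and MT4 0.

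Metallothioneins are small cysteine-rich proteins that bind zinc and copper, buffer the free metal in the cell and take part in the handling of cadmium and of oxidants. MT2A and the MT1 genes lie side by side on chromosome 16. The zinc-sensing transcription factor MTF1 switches them on through metal response elements (MREs) in their promoters, and glucocorticoids, hypoxia and cytokines are also known to raise them. The same factor drives SLC30A1, the zinc exporter of the plasma membrane.

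The CCOs came from H7, a human embryonic stem cell line. Flat cultures were first taken towards the cardiac lineage with the Wnt activator CHIR99021 and then the Wnt inhibitor IWP-2, and at day 7 they were dissociated with Accutase and aggregated in Matrigel. From then to day 14 they were kept in cardiosphere growth medium (CGM, with B27, thrombin, cardiotrophin-1, EGF, FGF-2, Wnt-3A and EDN1), so that D8 CCOs were sampled after a day in it and D14 CCOs after a week. D21 CCOs had a further week in RPMI with B27 in a spinner flask. All CCOs were dissociated with TrypLE and profiled as Chromium 3′ single-cell libraries, with 1 library per day, so a day cannot be told apart from its library, nor D21 from its medium and vessel, and the days could not be tested against each other.

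Of 3563, 4615 and 9149 barcodes of D8, D14 and D21, the 2657, 3585 and 1946 with over 2000 but under 7500 genes and a mitochondrial share under 10% were kept as cells. They held 46767738, 50247286 and 30898727 UMIs, with a median of 15316, 12282 and 14106 UMIs per cell. Levels are UMI counts scaled to a total of 1000000 (CPM) over the summed cells of a group, and every bracket is an exact 95% interval for counting error only. The D8 and D14 libraries shared 25 barcode sequences, 14 of them among kept cells, and the D14 cells with those barcodes held 2 member UMIs in all. Cells were clustered with the metallothionein genes left out, and a cluster was named only where markers of a class led it. Cardiomyocyte-like (CM-like) cells at D8 belonged to cluster 4, those of D14 to cluster 0 and those of D21 to clusters 5 and 17. The dividing cells of D8 were cluster 9, those of D14 cluster 6 with 23 cells of cluster 9, and those of D21 clusters 15 and 6, while endothelial-like cells were cluster 14 on all days. All 8 CM markers led clusters 4, 0 and 5 and 5 of 8 led cluster 17, and no cluster met the rule for smooth muscle, epicardial or macrophage markers. Unnamed clusters are given by number with their leading genes, among them cluster 2 (EBF2, HAND1, PGF), cluster 7 (PRSS1, TTR, APOA2, FOXA2), cluster 8 (ATF3, NPPB, CYR61, CTGF) and cluster 13 (SFRP2, POU5F1, SOX2, TFAP2A).

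The promoters are printed because MTF1 is known to act on metallothionein genes through MREs, as described above. The 250 bases before the transcription start were taken from RefSeq (GRCh38.p14) for the 3 of 7 members whose promoter was matched, and capitals mark each match to the MRE core, searched as TGCACNC and TGCGCNC on both strands. The run for MT2A is chr16:56608334-56608583, that for MT1H chr16:56669564-56669813 and that for MT1X chr16:56682220-56682469, all on the plus strand and printed 5′ to 3′.
MT2A: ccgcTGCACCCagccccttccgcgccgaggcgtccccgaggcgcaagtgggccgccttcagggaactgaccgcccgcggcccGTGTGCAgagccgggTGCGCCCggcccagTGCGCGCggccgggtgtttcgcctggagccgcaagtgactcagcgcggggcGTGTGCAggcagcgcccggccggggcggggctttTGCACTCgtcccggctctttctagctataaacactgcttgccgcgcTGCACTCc
MT1H: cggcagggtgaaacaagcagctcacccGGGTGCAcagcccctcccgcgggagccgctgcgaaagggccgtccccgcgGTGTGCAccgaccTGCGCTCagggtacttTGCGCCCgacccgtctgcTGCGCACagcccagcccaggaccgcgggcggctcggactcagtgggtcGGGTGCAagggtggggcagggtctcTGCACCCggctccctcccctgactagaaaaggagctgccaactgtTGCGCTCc
MT1X: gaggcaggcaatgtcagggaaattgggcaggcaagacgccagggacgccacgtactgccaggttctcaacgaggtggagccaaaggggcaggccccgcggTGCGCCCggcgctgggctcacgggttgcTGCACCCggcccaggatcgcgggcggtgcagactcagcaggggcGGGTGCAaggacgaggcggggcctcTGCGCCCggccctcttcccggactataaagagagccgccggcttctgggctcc

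The MT1H window held 8 matches, the MT2A window 7 and the MT1X window 4, and none of them overlapped another match. Among 35116 RefSeq promoter windows of the same length, 24.8% held at least 1 match, 0.37% at least 4, 0.0313% at least 7 and 0.0171% at least 8. The matches were read from letters alone and do not show that MTF1 was bound. SLC30A1 and DDIT4, genes that come up again below, each held 1 match, while the windows of MTF1 and SLC2A1 held none, as did 75.2% of all windows.

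**Figure D1:**
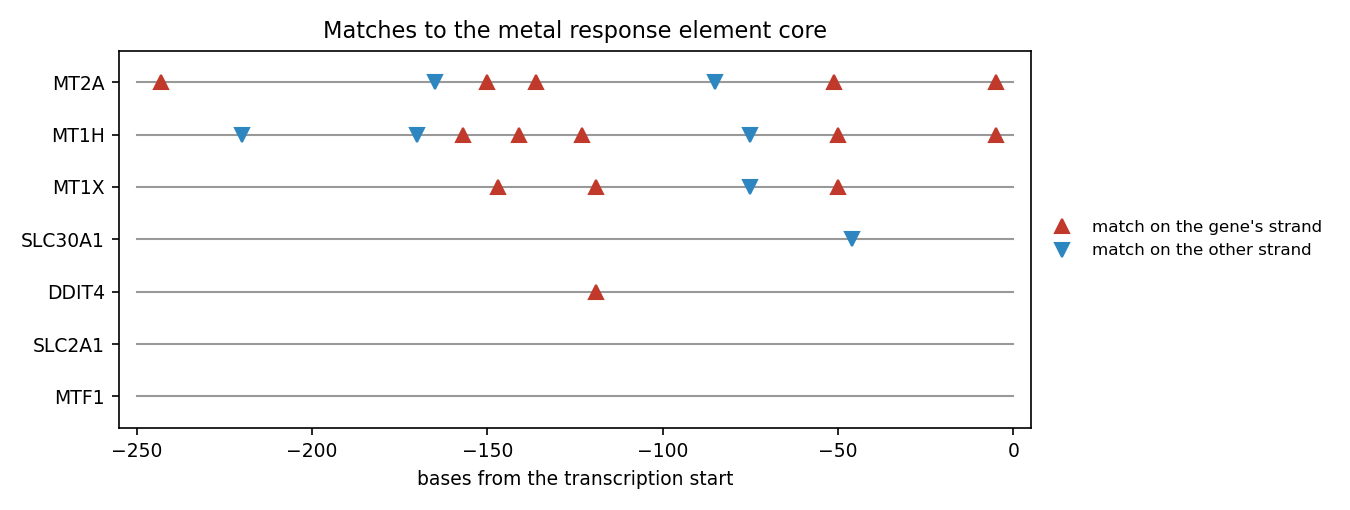
Matches to the MRE core in the 250 bases before the start site of 7 genes, with distance from the start site in bases on the x axis and a row per gene. MT1H shows 8 matches, MT2A 7 and MT1X 4, with the other genes at 0 or 1.

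The members' own transcripts share short stretches, and how reads that match several of them were counted is not given in the sources used here. The end of the coding stretch is not the end of the mRNA, next to which a 3′ library reads. The MT2A transcript, for 1, has 786 bases and a coding length of 186. The coding ends therefore do not measure how alike the sequenced ends are. The last 60 coding bases before the stop codon are shown for 4 members from GENCODE release 29, with capitals where a base differs from MT2A.
MT2A: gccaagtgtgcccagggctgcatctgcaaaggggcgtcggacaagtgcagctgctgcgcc
MT1G: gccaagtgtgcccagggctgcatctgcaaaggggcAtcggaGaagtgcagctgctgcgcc
MT1X: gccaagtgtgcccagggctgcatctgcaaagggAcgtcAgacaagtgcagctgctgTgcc
MT1M: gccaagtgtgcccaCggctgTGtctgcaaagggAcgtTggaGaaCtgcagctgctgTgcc

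MT1G differed from MT2A at 2 of these 60 bases, MT1H and MT1X at 3, MT1E at 4, and MT1F and MT1M at 8. In the last 300 bases of the transcripts, between 9.16% (MT1F) and 30.7% (MT1X) of all 50-base windows were also found in another gene. Windows of 100 bases were unique for 6 members, and for MT1H 4.98% of them also lay in MT1HL1. The summed members are given beside each gene for this reason.

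At D8 the 7 genes together took 77063 UMIs, or 1648 CPM, against 2104 UMIs (41.9 CPM) at D14 and 531 UMIs (17.2 CPM) at D21. MT2A, the most abundant member at D8, went from 654 CPM (646 to 661) to 15.9 (14.8 to 17.0) and 3.88 (3.22 to 4.64). MT1X had 374, 19.3 and 8.54 CPM on the 3 days. These members were thus ordered D8, D14, D21 with intervals that did not overlap.

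MT1E had 274 CPM at D8, 1.93 (1.57 to 2.35) at D14 and 4.53 (3.81 to 5.35) at D21, so that its low point was D14. MT1G had 269 CPM at D8, 2.25 at D14 and 0.0971 at D21, the last from 3 UMIs. MT1H had 51.8, 2.23 and 0 CPM, and MT1F 17.9, 0.219 and 0.129. MT1M, the least abundant, had 7.83 CPM at D8, a single UMI at D14 and none at D21, where a count of 0 allows up to 0.0971 CPM for it and for MT1H. At D14 and D21 MT1X replaced MT2A as the most abundant member.

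As log2 ratios of D14 over D8, the summed members stood at -5.30 (-5.36 to -5.24), MT2A at -5.36 (-5.46 to -5.26), which is 41.1-fold lower, and MT1X at -4.27 (-4.37 to -4.18). MT1E had the lowest ratio of the members with at least 10 CPM on either day, at -7.15. That rank rests on 1 D14 cell with 105 of the 113 MT1G UMIs. Without it MT1G was 0.159 CPM at D14 and MT1E 1.47, so MT1G stood lower. All 6 members at 10 CPM or more on either day were at least 2-fold lower, a size that 1.63% of the 9105 genes tested reached. Since this contrast chose the members, nothing is read from the count. From D14 to D21 the ratio of the summed members was -1.28 (-1.42 to -1.15), with MT2A at -2.03 and MT1X at -1.18. Both of the 2 members at 10 CPM or more were at least 2-fold lower, where 10.1% of 9333 genes were lower and 5.8% higher, but they reached that level only through D14, so nothing is read from the count. MT1E, under that level on both days, had a ratio of 1.23.

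**Figure D2:**
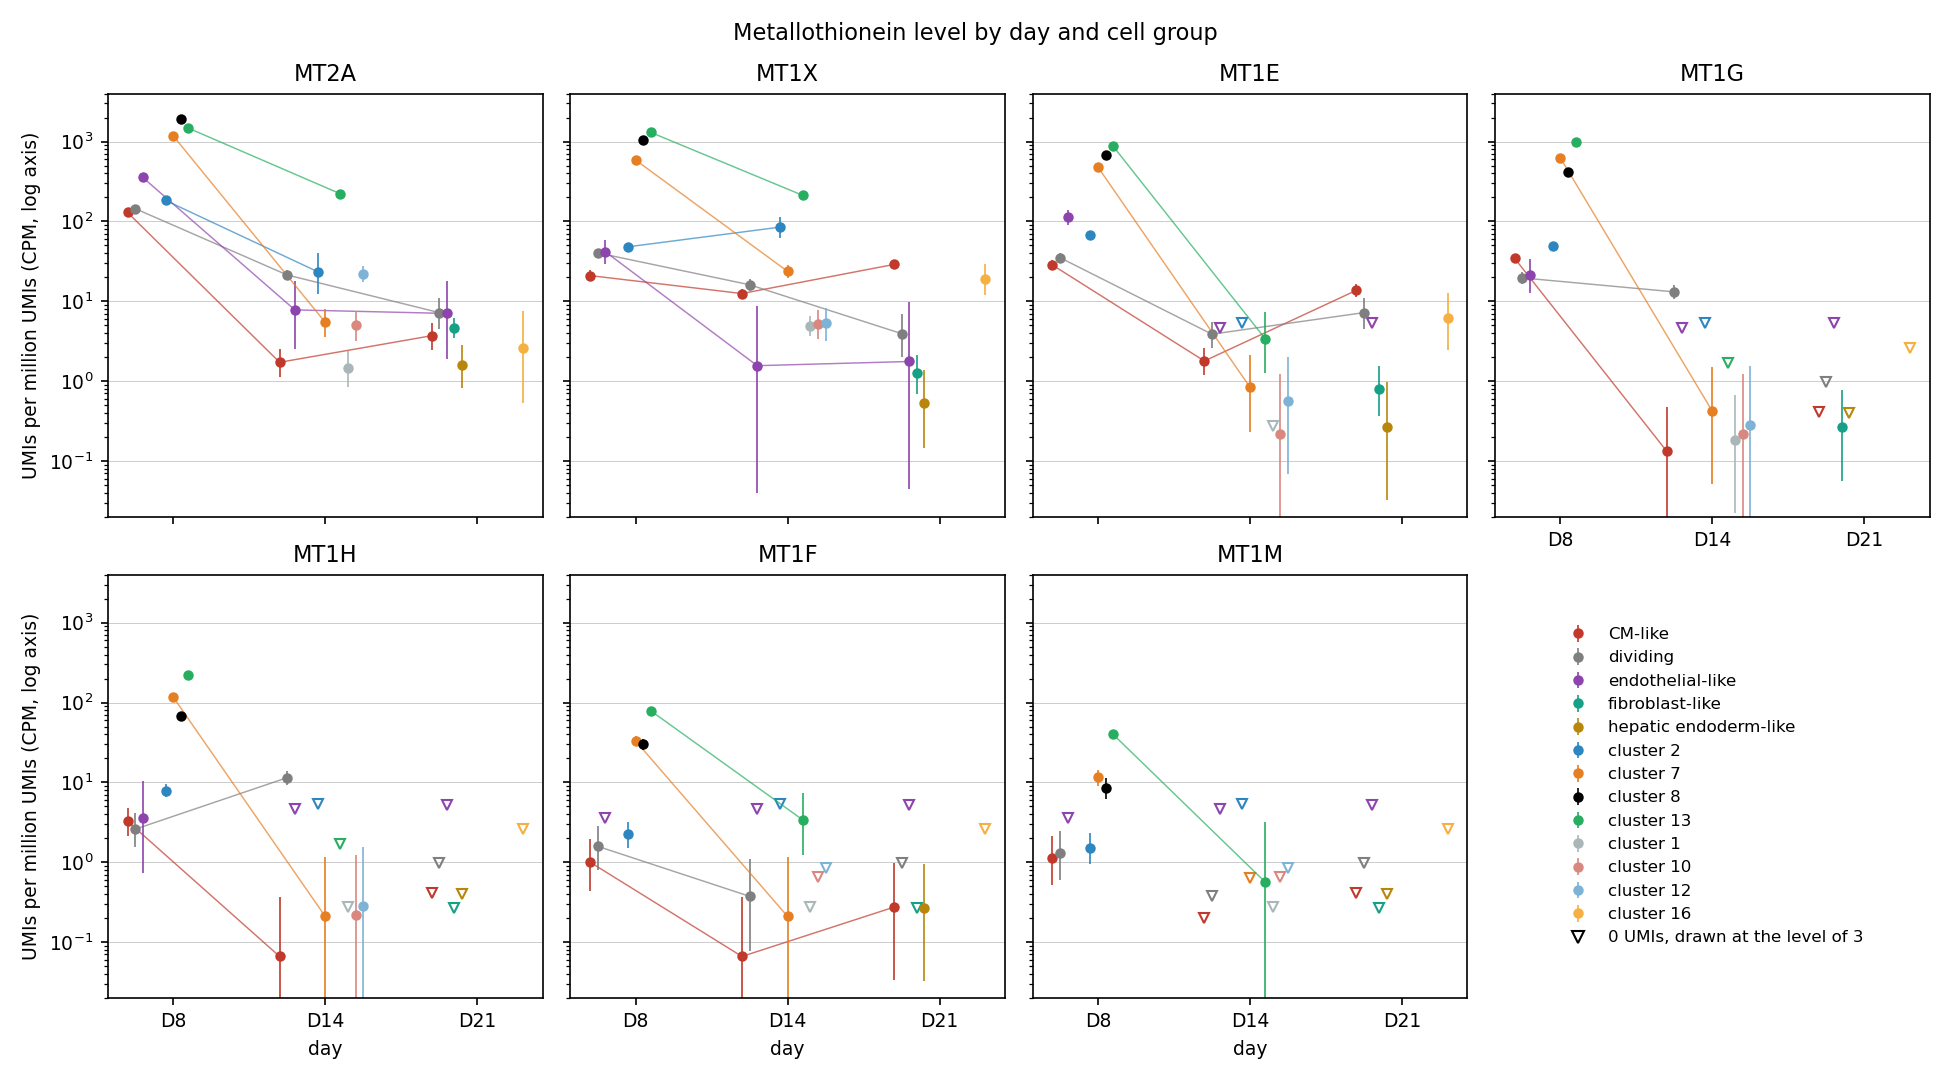
Level of each member in CPM (log axis) at D8, D14 and D21, with a panel per gene, a point for the summed cells of each cell group, bars for exact 95% intervals and a sideways shift that keeps groups apart. Open triangles mark groups with 0 UMIs, drawn at the level of 3 counts, lines join a class that was detected on successive days, and clusters 7, 8 and 13 stand highest at D8 in all 7 panels.

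In CM-like cells MT2A had 129 CPM (121 to 137) at D8 and 1.72 (1.12 to 2.51) at D14, a log2 ratio of -6.24 (-6.86 to -5.68). MT1E went from 28.5 to 1.78 CPM and MT1G from 34.4 to 0.132. MT1X, however, had 20.9 CPM (17.9 to 24.4) at D8 and 12.5 (10.8 to 14.4) at D14, a ratio of -0.75 (-1.06 to -0.44). The other 3 of the 4 members tested there were at least 2-fold lower, where 2.13% of 9073 genes were lower and 10.4% higher. Those 3 members reached 10 CPM only through D8 and this contrast chose them, so nothing is read from the count. The MT1X value depends on how the cells are chosen. In cells taken by their CM marker UMIs alone MT1X was 199 CPM at D8 and 17.3 at D14, which is past 2-fold. That gate took 1057 cells at D8 in place of 493. At D14 it took 2557 of the 3585 kept cells in place of 1147, so its cells are not only CM-like.

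MT2A was at least 2-fold lower at D14 in 6 of the 6 classes with at least 20 cells on both days. Cluster 8, with the highest MT2A at D8 (1895 CPM) and 29.7% of the D8 member UMIs, was not compared. It had 396 cells at D8 but 10 at D14. The differences were smallest in cluster 13, from 1472 CPM to 221 (-2.73), in dividing cells, from 144 to 21.3 (-2.76), and in the 28 D14 cells of cluster 2, from 183 to 23.4 (-2.97). The difference was largest in cluster 7, from 1180 CPM to 5.44 (-7.76), and endothelial-like cells went from 355 to 7.79 (-5.51). At D8, 1 of the 48 endothelial-like cells held 280 of their 447 member UMIs. Single cells also weigh on the D14 values. MT2A at D14 was 12.5 CPM in dividing cells without 1 cell. In cluster 13 it was 36.2 CPM without its 4 cells at 1000 CPM or more. With clusters cut more finely (resolution 1.2) the count was 6 of 7, the exception being a cluster of 191 D8 and 20 D14 cells with 159 and 196 CPM.

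This contrast chose the members, and many of them reached 10 CPM only through D8, so nothing is read from the following counts. In clusters 7 and 13, 7 of 7 members were at least 2-fold lower against 3.67% and 8.76% of all genes, and in endothelial-like cells, where it was 4 of 4 against 8.84%. No member was at least 2-fold higher in these 3 classes, where 5.89%, 9.23% and 6.84% of genes were. In cluster 2 it was 3 of 4 against 4.05%, with none at least 2-fold higher against 15.3%. In cluster 2 MT1X went the other way, from 48.0 CPM (44.4 to 51.8) to 84.7 (62.2 to 113), a ratio of 0.82, but 30 of its 47 D14 UMIs lay in a single cell, and without that cell the ratio was -0.57. In dividing cells 3 of 5 members were at least 2-fold lower (2.07% of genes) and MT1H was higher (6.66% of genes), from 2.59 CPM to 11.5, a ratio of 2.14. All 92 of its D14 UMIs there were in a single cell, and without it the count was 0, which puts the ratio at -2.79 or lower. MT1G, with a ratio of -0.58, had all 105 of its D14 UMIs in the same cell, and without it the ratio is at -5.71 or lower.

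The D8 level was made by few cells. The summed members had a median of 87.4 CPM per cell, and 743 of 2657 cells (28.0%) had no member UMI. Against that, 287 cells (10.8%) at 1000 CPM or more held 93.4% of all member UMIs, and 83 cells (3.12%) at 10000 CPM or more, where metallothioneins are at least 1% of the transcripts, held 73.2%. In the highest cell 1078 of 9381 UMIs (11.5%) were metallothionein. The cuts are not gaps in the distribution, since 1073 cells lay within 2-fold of 100 CPM, 189 of 1000 CPM and 67 of 10000 CPM.

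**Figure D3:**
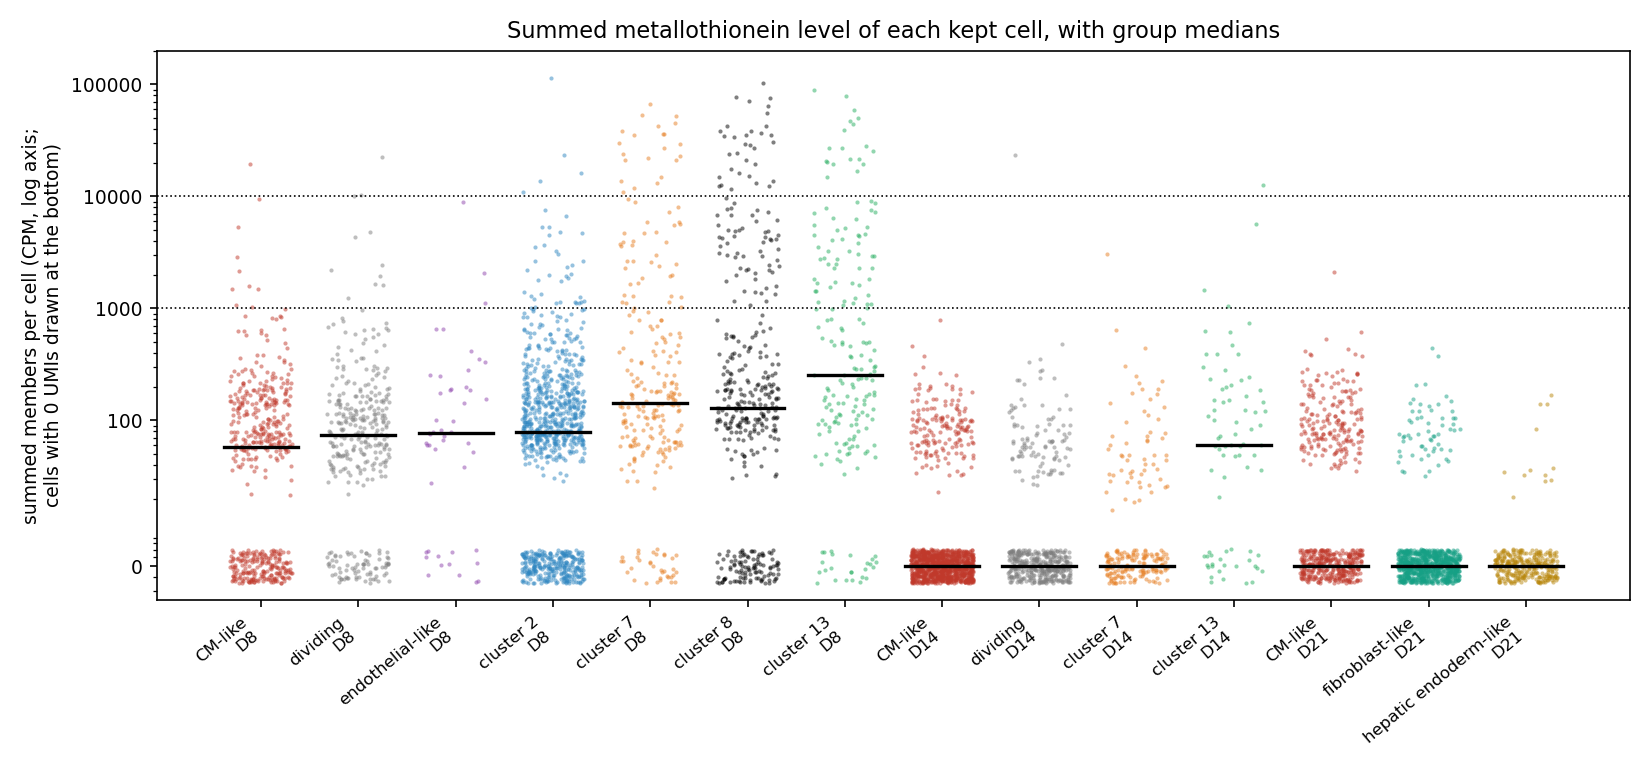
Summed member CPM of each kept cell on a log axis, by cell group and day, with a point per cell, a black bar at the median, dotted lines at 1000 and 10000 CPM, and cells with 0 member UMIs drawn at the bottom. Of the 83 D8 cells at 10000 CPM or more, 74 lie in clusters 7, 8 and 13, and the medians of the D14 and D21 groups lie at 0 except in cluster 13.

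Those cells were concentrated in clusters 7, 8 and 13, which made up 32.1% of the D8 cells, held 88.5% of their member UMIs and included 74 of the 83 cells at 10000 CPM or more (22, 33 and 19). Cluster 2 held 5 of the others, dividing cells 3 and CM-like cells 1. By summed cells, MT2A at D8 was 1895 CPM in cluster 8, 1472 in cluster 13, 1180 in cluster 7, 355 in endothelial-like cells, 183 in cluster 2, 144 in dividing cells and 129 in CM-like cells. Neighbours in this order differed beyond counting error, except the last 2, whose intervals were 136 to 154 and 121 to 137 and touch. The place of endothelial-like cells rests on few cells. Without their 3 cells at 1000 CPM or more, their summed members were 126 CPM, as in cluster 8 without such cells (126). Medians per cell lay much closer, at 257 CPM in cluster 13, 145 in cluster 7 and 129 in cluster 8, against 57.5 in CM-like, 73.7 in dividing, 76.6 in endothelial-like and 78.5 in cluster 2 cells. The classes thus lay further apart in their sums than in their medians.

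The high cells carried several members at a time. Among the 83 cells, MT2A was found in 83, MT1E in 82, MT1X in 80, MT1G in 71, MT1F in 56, MT1H in 54 and MT1M in 24. MT2A ranged from 36 to 819 UMIs with a median of 209, MT1X from 0 to 1031 with a median of 136, and MT1G from 0 to 994 with a median of 48. These cells had a median of 18997 UMIs against 15123 in cells under 100 CPM, and a median doublet score of 0.0732 against 0.0491, and the part of doublets in them was not tested.

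Over cells, MT2A and MT1E had a Spearman correlation of 0.74 in cluster 13 (202 cells), 0.61 in cluster 7 (255) and 0.55 in cluster 8 (396), against 0.25 in CM-like cells (493) and 0.26 in dividing cells (344). With MT1X the values were 0.56, 0.49 and 0.54 in the same 3 clusters and 0.06 and 0.03 in CM-like and dividing cells. These cells share a library and the counts outside the 3 clusters are sparse, so the values are a description only.

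Low counts were found in every class at D8. The 1446 cells under 100 CPM held 864 member UMIs, of which MT2A made up 42.9%, MT1X 20.02%, MT1E 16.1% and MT1G 15.2%. In the 3 largest groups of such cells, cluster 2, CM-like and dividing, MT2A made up 39.0%, 42.1% and 51.8% and MT1X 22.1%, 22.0% and 16.1%. Over all D8 cells the shares were 39.7% for MT2A, 22.7% for MT1X, 16.6% for MT1E and 16.3% for MT1G. MT2A was the largest share in each of them. The part of free RNA in these low counts was not tested, as no class is known to lack metallothioneins.

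The share of cells with a member UMI was largest at D8, while D14 and D21 did not differ beyond counting error at equal depth. With each cell thinned to 4000 UMIs, 39.6% (37.8 to 41.5) of D8 cells, 5.89% (5.14 to 6.71) of D14 cells and 5.91% (4.90 to 7.05) of D21 cells had one. At full depth the shares were 72.0%, 15.8% and 16.9%. For MT2A alone the thinned shares were 25.5%, 2.12% and 1.59%. Among classes of at least 20 cells, the lowest thinned share at D8 was 26.8%, in CM-like cells (median 14437 UMIs per cell). At D14 it was 1.73%, in cluster 1 (10610 UMIs, led by MFAP4, HAND1 and HOXB4). At D21 it was 0.327%, or 1 of 306 cells, in hepatic endoderm-like cells (21930 UMIs).

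The D8 level stayed above that of the later days when the high cells were set aside. Without cells at 1000 CPM or more, the summed members were 125 CPM at D8, 19.8 at D14 and 16.4 at D21, so the ratio of D14 over D8 was -2.65 in place of -5.30 and that of D21 over D14 was -0.27 in place of -1.28. For MT2A the first ratio was -3.16.

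At D14, 3017 of 3585 cells (84.2%) had no member UMI, and 8 cells at 1000 CPM or more held 52.8% of the UMIs. A dividing cell with 15311 UMIs held 362 of them, including 105 of the 113 MT1G UMIs and 92 of the 112 MT1H UMIs of the day. The next were a pair of cluster 13 cells with 287 and 229 member UMIs, which carried only MT2A and MT1X apart from 1 MT1E and 3 MT1F UMIs, and a cluster 8 cell with 107. Of the 8 cells, 4 belonged to cluster 13, and none had a barcode that also occurs at D8. Among classes of at least 20 D14 cells, cluster 13 had the highest level, at 440 CPM (410 to 472) for the summed members. Without its cells at 1000 CPM or more it was 118 CPM. Cluster 8, with 10 D14 cells, was not ranked.

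Cluster 8, with 10 D14 cells, 1 of which held 46 MT2A UMIs, is not ranked here either. Among the other D14 groups of at least 20 cells, MT2A was highest after cluster 13 in cluster 2, at 23.4 CPM. Cluster 12 (22.1, led by EBF2 and SST) and dividing cells (21.3) came next, and the intervals of these groups overlap. Without the single high cell, dividing cells had 12.5 CPM (10.2 to 15.2), under the interval of cluster 12 (17.5 to 27.6). It was lowest in CM-like cells (1.72) and cluster 1 (1.46). MT1X was 212 CPM in cluster 13, 84.7 in cluster 2, 23.6 in cluster 7, 16.1 in dividing cells and 12.5 in CM-like cells. Of the 129 MT1X UMIs of dividing cells 68 lay in that same cell, and without it MT1X was 7.62 CPM (5.83 to 9.78), below CM-like cells, while cluster 2 had 32.3 CPM (18.8 to 51.7) without 1 cell. Cluster 1 (4.94), cluster 10 (5.25, led by MGP and CXCL12) and cluster 12 (5.32) had the least with over 10 UMIs, and do not differ beyond counting error.

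**Figure D4:**
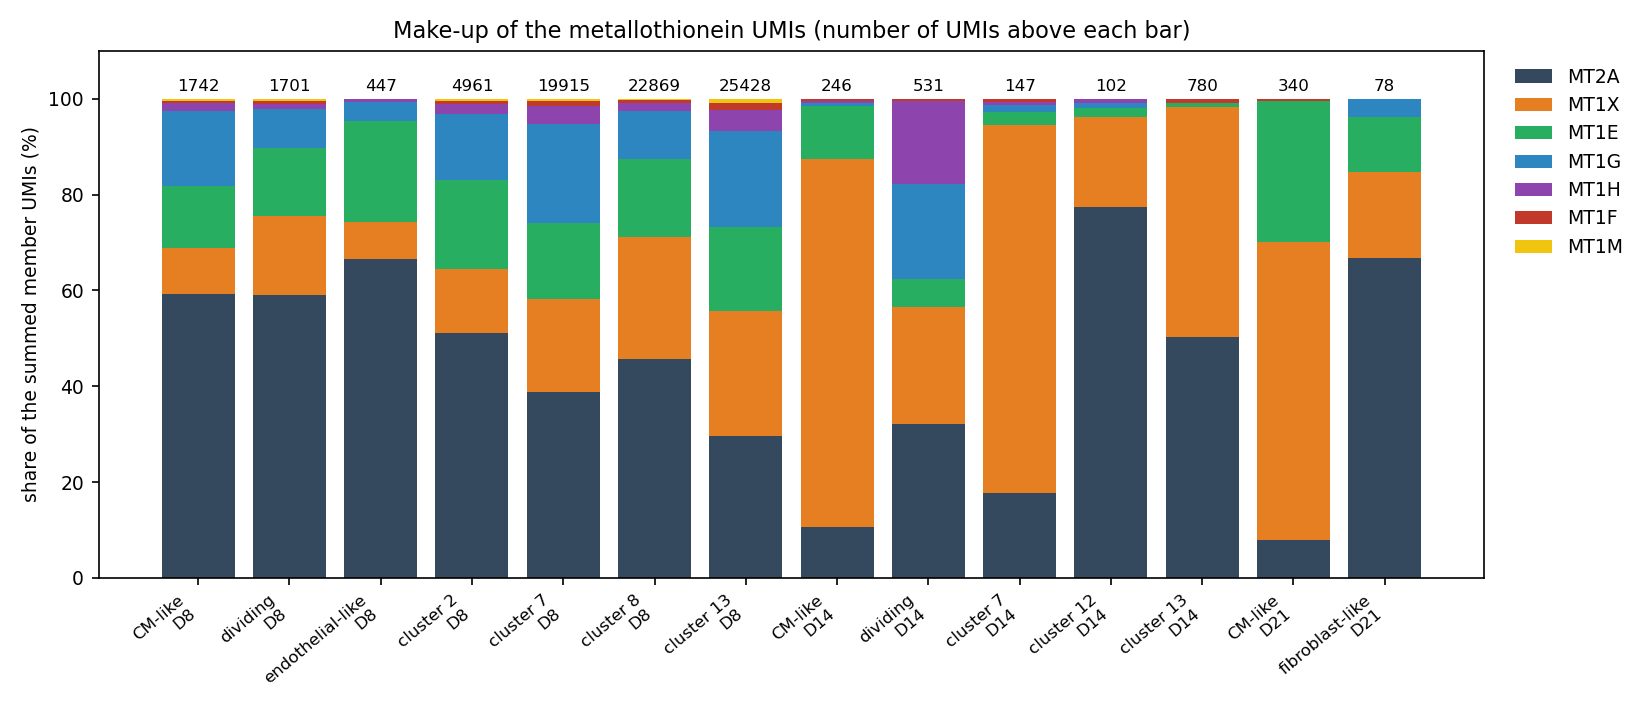
Make-up of the family, as the percentage of the member UMIs of a cell group and day taken by each gene, in bars stacked from 0 to 100% with the number of UMIs above each. MT2A is the largest share in the CM-like cells of D8 (59.2%), and MT1X in those of D14 (76.8%) and D21 (62.1%).

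The make-up of the family differed between classes and days, a measure that does not depend on the total UMIs of a class. Its differences between D8 and D14 rest on the counts that chose the members, so they are a description. At D8 MT2A made up 59.2% (56.8 to 61.5) of the member UMIs in CM-like cells, 59.0% in dividing, 66.4% in endothelial-like and 51.1% in cluster 2 cells, but 38.9% in cluster 7, 45.7% in cluster 8 and 29.6% in cluster 13. MT1X made up 9.59% in CM-like cells and 26.2% in cluster 13, and MT1G 20.6% in cluster 7 and 9.97% in cluster 8. In CM-like cells 60.2% of the D8 member UMIs came from 10 cells, and in endothelial-like cells 78.5% came from 3 cells. These shares thus rest on few cells.

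At D14 the share of MT1X was 76.8% (71.0 to 82.0) in CM-like cells, 76.9% in cluster 7 and 75% in cluster 1, while MT2A made up 77.5% (68.1 to 85.1) in cluster 12. In cluster 13 MT2A took 50.3% and MT1X 48.1%, but 30.6% and 64.8% without the 4 cells at 1000 CPM or more, which held 584 of its 780 member UMIs. These groups thus differed in which gene they used, with intervals that do not overlap between CM-like cells and cluster 12.

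In the clusters named CM-like the D21 level was above that of D14. MT1X was 12.5 CPM (10.8 to 14.4) at D14 and 28.9 (25.1 to 33.1) at D21, a log2 ratio of 1.21 (0.92 to 1.5). MT1E was 1.78 CPM (1.17 to 2.59) and then 13.7 (11.1 to 16.6), a ratio of 2.94 (2.32 to 3.61). Both of the 2 members tested were at least 2-fold higher, as were 5.05% of 9149 genes in these cells. MT1E reached 10 CPM only through D21, so nothing is read from the count. MT2A was 1.72 and 3.70 CPM, a ratio of 1.11 (0.27 to 1.94) from 26 and 27 UMIs, and was under the minimum of 10 CPM. In cells taken by CM marker UMIs alone MT1X went the other way, with 17.3 CPM at D14 and 8.55 at D21. Those were, however, 2557 of the 3585 kept cells at D14. At D21 they were 1944 of the 1946 kept cells, nearly all of the day.

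The share of CM-like cells with any member UMI, thinned, was 5.41% (4.17 to 6.88) at D14 and 13.9% (11.1 to 17.1) at D21, and 14.6% and 37.0% at full depth, so the D21 level was spread over more cells. The D21 cell with the most member UMIs held 23 of 340, and without it MT1X stood at 1.05 and MT1E at 2.94. At D21 CM-like cells stood above the other named classes in both genes. MT1X was 1.25 CPM in fibroblast-like, 0.532 in hepatic endoderm-like and 3.93 in dividing cells, and MT1E was 0.803, 0.266 and 7.2 CPM. Unnamed cluster 16 (58 cells, led by MYL2) came nearest for MT1X, at 19.1 CPM (12 to 28.9). MT2A did not follow, at 3.70 CPM in CM-like, 4.64 in fibroblast-like, 7.2 in dividing and 1.6 in hepatic endoderm-like cells.

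Mitochondrial share moved with the day in these cells. Its median in CM-like cells was 2.85% at D8, 5.00% at D14 and 8.41% at D21, and the limit of 10% removed many D21 barcodes. With a limit of 20%, CM-like cells of D21 had 15.4 CPM of MT1X (5.00 to 36.0, 27 cells) at 0 to 5% mitochondrial UMIs, 30.4 (26.1 to 35.2, 421 cells) at 5 to 10% and 23.2 (20.9 to 25.7, 1197 cells) at 10 to 20%, against 12.7, 12.6 and 16.4 CPM at D14. MT1E was 12.3, 14.5 and 14.6 CPM at D21 against 0.591, 2.89 and 3.11 at D14. D21 was the higher day within each range, with overlapping intervals for MT1X under 5% and from 10 to 20%.

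In dividing cells the summed members had 66.2 CPM at D14 and 18.3 at D21, a ratio of -1.85 (-2.28 to -1.45), and 4 of 4 members were at least 2-fold lower (7.88% of 9201 genes) and none higher (5.48%). They reached 10 CPM only through D14, and MT1G and MT1H there wholly through 1 cell, so nothing is read from that count. Without that cell the D14 level was 21.1 CPM, which is inside the D21 interval of 13.8 to 23.8. Endothelial-like cells had 6 member UMIs at D14 and 5 at D21, too few to compare.

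Genes of metal handling and of the pathways known to raise metallothioneins were set beside the members, as 9 lists. From D8 to D14 in all kept cells, SLC30A1 went from 13.8 CPM to 5.77 (-1.26, -1.46 to -1.06) and was 1 of 14 tested genes of zinc sensing and transport to reach 2-fold lower. MTF1 went from 11.2 CPM to 8.92 (-0.33). Of the 6 heat shock genes, 5 were at least 2-fold lower with a list median of -1.34 against 0.08 for all genes, where 1.63% of all genes were lower, among them the chaperone genes HSPA1A (53.7 to 9.81 CPM) and HSPA1B (81.8 to 11.5 CPM). These are the same libraries in which the members were lower.

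The other lists held few genes at least 2-fold lower over the same interval. Of 7 immediate early genes 3 were higher (FOS, FOSB and JUNB), of 6 glucocorticoid targets 2 were higher (KLF9 and DUSP1) and 1 lower (ZBTB16), and of 4 STAT3 targets 2 were higher (SOCS3 and BCL3), where 8.95% of all genes were higher. Of 11 copper and iron genes 1 was lower (SLC40A1, the iron exporter), and of 8 amino acid stress genes 1 was lower (DDIT4) and 1 higher (TRIB3). None of the 6 NRF2 targets or 7 hypoxia genes tested reached 2-fold. From D14 to D21 in CM-like cells, where MT1X and MT1E were higher, SLC30A1 was 7.79 and 14.4 CPM (0.88), 3 of 14 zinc genes were lower (SLC39A1, SLC39A4 and SLC39A10, all zinc importers), 6 of 7 hypoxia genes were lower and 3 of 6 heat shock genes were higher. Of all genes there, 15.0% were at least 2-fold lower and 5.05% higher. In the other lists 3 of 7 immediate early genes were lower, as were 2 of 8 amino acid stress genes with 1 higher, 2 of 5 STAT3 targets with 1 higher, 1 of 5 glucocorticoid targets with 1 higher, 1 of 6 NRF2 targets and 1 of 11 copper and iron genes.

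**Figure D5:**
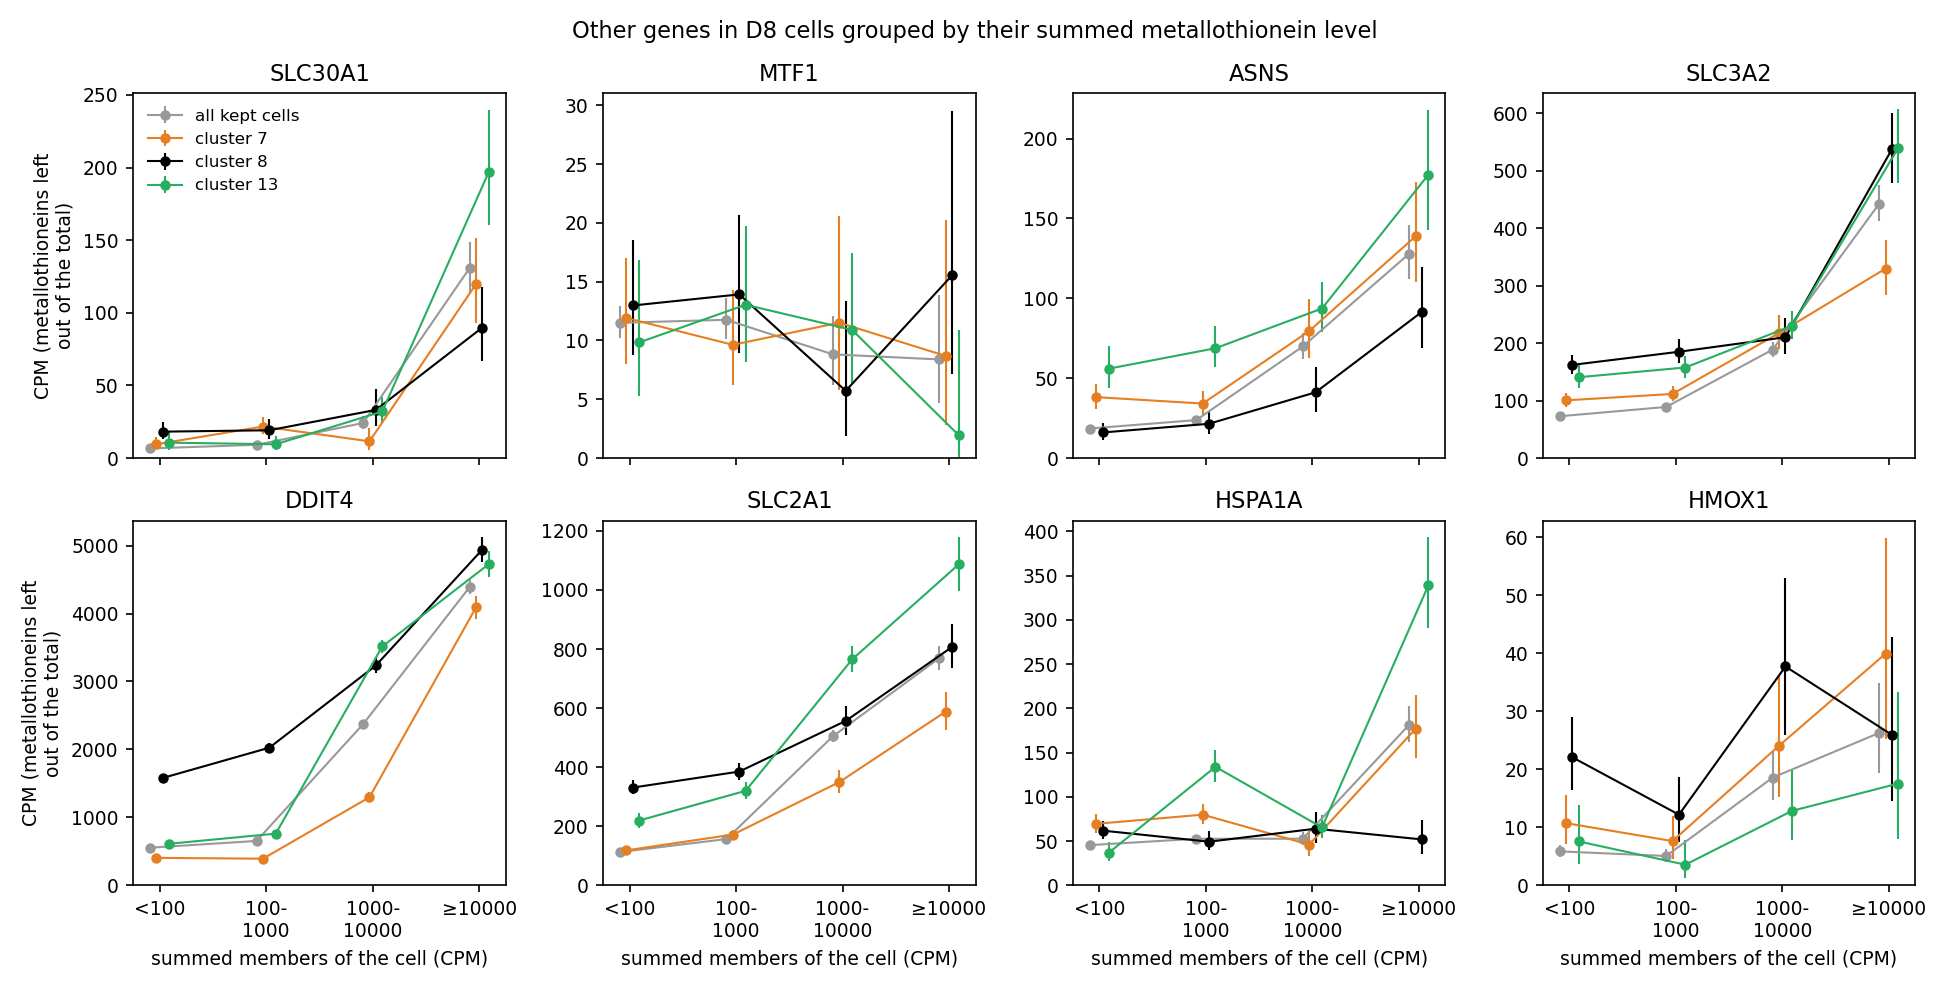
Level of 8 genes of metal handling and stress (CPM on a linear axis from 0, metallothioneins left out of the total) in D8 cells grouped by their summed member level, for all kept cells and for clusters 7, 8 and 13, with bars for exact 95% intervals. Over all kept cells SLC30A1 goes from 6.62 to 131 CPM over the 4 groups of level and MTF1 from 11.5 to 8.38.

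Within D8, cells were grouped by their summed member level, with the metallothioneins left out of the total, to describe what else the high cells contained. SLC30A1 was 6.62 CPM (5.65 to 7.71) in the 1446 cells under 100 CPM, 9.10 in the 924 cells from 100 to 1000, 24.1 in the 204 cells from 1000 to 10000 and 131 (115 to 149) in the 83 cells at 10000 or more. It was found in 60.2% of the highest cells and 9.13% of the lowest. The same held inside single clusters, at 9.53 CPM in the lowest and 120 in the highest cells of cluster 7, 18.2 and 89.9 in cluster 8, and 10.6 and 197 in cluster 13. MTF1, the factor itself, was 11.5, 11.8, 8.82 and 8.38 CPM, with overlapping intervals in the lowest and highest group.

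SLC30A1 was the only 1 of 13 tested genes of zinc sensing and transport that was at least 2-fold higher in the highest than in the lowest cells, and the importer gene SLC39A3 was the 1 that was lower, with 5.19% of 8654 genes higher and 13.6% lower. In the amino acid stress list 8 of 8 tested genes were higher, with a median of 2.38 against -0.22 for all genes. SLC3A2, an amino acid transporter subunit, went from 72.7 CPM to 443, ASNS, asparagine synthetase, from 18.5 to 128, and DDIT4, which restrains mTOR signalling, from 554 to 4388. TRIB3 went from 4.28 to 28.5 CPM and DDIT3, a stress transcription factor, from 31.2 to 108. TRIB3 and SLC30A1 reached 10 CPM only through the highest cells, so nothing is read from the counts of their lists.

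Hypoxia genes were higher in 5 of 7, heat shock genes in 4 of 6, glucocorticoid targets in 2 of 5, immediate early genes in 2 of 7 and NRF2 targets in 2 of 8. SLC2A1, a glucose transporter, went from 113 to 770 CPM, HMOX1, heme oxygenase, from 5.85 to 26.3 and HSPA1A from 45.5 to 182. Of 10 copper and iron genes 3 were lower and none higher, and of 3 STAT3 targets 1 was higher and 1 lower. Cells from 1000 to 10000 CPM had 3 of 7 amino acid stress, 4 of 7 hypoxia and 2 of 8 NRF2 genes above the lowest cells, where 2.19% of genes were higher and 4.81% lower. Cells from 100 to 1000 CPM differed little from the lowest ones, with no gene of the 9 lists past 2-fold, where 0.119% of genes were higher and 0.107% lower.

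These cells come from different clusters, so the highest cells were also set against those under 1000 CPM of their own cluster. Amino acid stress genes were higher in 7 of 8 in cluster 7, 5 of 8 in cluster 8 (with GDF15 lower) and 8 of 9 in cluster 13, against 5.2%, 5.26% and 9.8% of all genes, with 11.5%, 5.97% and 8.21% lower. Hypoxia genes were higher in 5 of 7, 3 of 7 and 5 of 7. Zinc genes were higher in 1 of 14, 2 of 12 and 1 of 12, with 2, 1 and 4 lower. Immediate early genes were higher in 2 of 7, 0 of 7 and 3 of 6, with 2 lower in cluster 8. STAT3 targets were higher in 2 of 4, 0 of 4 and 2 of 4, with 1 lower in cluster 8. Glucocorticoid targets were higher in 2 of 4, 1 of 5 and 2 of 5, with 1 lower in cluster 13. NRF2 targets were higher in 1 of 8, 1 of 6 and 1 of 8, with 1 lower in cluster 7. Copper and iron genes were higher in 0 of 10, 1 of 11 and 0 of 9, with 2, 1 and 0 lower. Heat shock genes were higher in 2 of 6, 0 of 6 and 4 of 6, and HSPA1A in cluster 8 was 61.8 CPM in the lowest and 51.9 in the highest cells. DDIT4 and SLC2A1 were already high in cluster 8, at 1580 and 331 CPM in its lowest cells, and reached 4942 and 807 in its highest. The levels chose the cells, and cells of 1 library are not replicates, so these are descriptions without a test. Genes could enter the counts through the highest cells alone, as TRIB3 and HMOX1 did over all kept cells. For this reason nothing is read from the counts of any list.

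Over 19 groups of at least 50 cells, 6 of them from D8, the genes most like the summed members included LIN28A, a regulator of let-7 microRNAs (Pearson r = 0.90 on log2(CPM + 10)), SART3 (0.90), KCNMA1 (0.90), SYT6 (0.88), VMA21 (0.88), HSPA1B (0.88), AEN (0.87), ZNF296 (0.87) and BAG4 (0.86), of 11818 genes compared. LIN28A ranged from 72.2 to 490 CPM in the D8 groups and from 0 to 71.4 in the later ones, so the likeness is that of a gene higher in every D8 group. SLC30A1 had 0.56 and MTF1 0.59. The groups of a day share a library, and the value is a description of the pattern.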

How the data were processed

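All 3 libraries were deposited by the authors as 1 table of UMI counts, with genes against cell barcodes, and its values were checked to be whole and not normalized. The submitters' processing notes name Cell Ranger, Seurat 3.2.1 and the hg19 build, and a version of Cell Ranger is not given in the sources used here. Coordinates and sequences are from other releases, RefSeq GRCh38.p14 and GENCODE 29, and no file coordinate was used. How the counting treated reads that match several metallothionein genes is not given either.

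Cells were kept as the study's methods state (over 2000 and under 7500 genes, under 10% mitochondrial UMIs). Seurat 5.3.0 in R 4.3.3 log-normalized counts to 10000 per cell, chose 2000 variable genes, of which 9 metallothionein genes were left out, and clustered all days together on 20 principal components at resolution 0.8, with no integration. A cluster was named when at least 3 fixed markers of a class were at least 2-fold above the other cells of its main day (10 CPM added), and at least 2 more than for any other class. Of the 18 clusters 10 were named. Scrublet (scanpy 1.11.5, anndata 0.12.19) marked only 1, 1 and 7 cells at its automatic threshold. These calls were too few to rely on, and no doublet was removed. Its scores served only to describe the high cells and for an alternative, and how well they mark doublets here was not tested. Several of the markers also stand in the study's own marker tables, which were made from these libraries.

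UMIs were summed per day and class (Python 3.11.15, numpy 2.4.6, pandas 2.3.3, scipy 1.17.1), with exact Poisson, binomial and Clopper-Pearson intervals at 95%. A gene counted as past 2-fold when it had at least 10 CPM in either group, with 1 count added. A 3′ UMI count does not grow with gene length, so members were compared without a length correction. A count of 0 is given the limit of 3 counts. Shares of cells were thinned to 4000 UMIs. For the TMM alternative edgeR 4.0.16 and Matrix 1.6.5 were used, and for figures matplotlib 3.10.9. The scripts were tested on simulated counts.

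As each day has 1 library, no p-value was computed, and genes past 2-fold are counted by size alone, not called changed. The members and lists were chosen with earlier results of these data known. Genes named are the members, the other metallothionein genes, the genes of the lists, those among the 10 with the highest correlation with the summed members (1 is not reported here), and, chosen after their values were seen, the leading genes of unnamed clusters. The lists were zinc sensing and transport, copper and iron handling, NRF2, glucocorticoid and STAT3 targets, amino acid stress, heat shock, immediate early and hypoxia. The groups of D8 cells by member level were chosen after seeing the data. Alternatives tried were other mitochondrial limits, all barcodes, no likely doublets, means per cell, no top cells, other scalings, other clusterings, marker gates, thinning, subtraction of the lowest class, and no filter on low genes.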

Additional observations from a re-analysis of the deposited data

Results flagged for a closer look

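MT1H in dividing cells had a log2 ratio of D14 over D8 of 2.14, while 2 of 3 classes were lower. MT1X in cluster 2 had a ratio of 0.82 over the same days, while 5 of 6 classes were lower. Both were picked out because a class moved opposite to the others, both rest on 1 cell of D14, and the differences between classes were not tested.

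From D14 to D21, MT1X in CM-like cells had a ratio of 1.21 and the summed members 1.52, while dividing cells were lower. The D14 level of dividing cells rests in large part on 1 cell. Without it the summed members there were 21.1 CPM at D14 against 18.3 at D21, and MT1X 7.62 against 3.93. The CM-like ratios were picked out for the same reason, and the difference between the classes was not tested.

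Barcodes outside the cell filter also held metallothionein UMIs and entered no comparison. Their summed level was 4707 CPM in 906 barcodes of D8, 31.5 CPM in 1030 of D14 and 28.5 CPM in 7203 of D21, above the limit that a count of 0 allows. At D8 a single barcode, with 7500 genes or more, held 8372 member UMIs, 14.9% of its UMIs. The 878 barcodes of D8 with 2000 genes or fewer had 2950 CPM, with a median of 143 CPM per barcode, and 73.7% of their member UMIs lay in 33 barcodes at 10000 CPM or more.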

How the results depend on the processing

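No paired analysis was possible because each day has 1 library. The count of classes with MT2A at least 2-fold lower was 6 of 6, 6 of 7 at resolution 1.2 and 4 of 4 with a 5% mitochondrial limit, under which fewer classes had enough cells.

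The ratio of D14 over D8 for MT2A (-5.36) was -5.52 with all deposited barcodes, -5.50 as a mean per cell, -5.66 without the 5% of cells with the highest member level, -5.49 with median-of-ratios scaling, -5.47 with TMM and when thinned, -5.18 with the lowest class subtracted, -5.50 without the top D14 cell and -3.16 without cells at 1000 CPM or more. For the summed members (-5.30) it was -5.47 with a 5% mitochondrial limit, -5.50 with all barcodes, -4.89 without the top 5%, -5.42 with median-of-ratios, -5.41 with TMM, -5.40 without mitochondrial and ribosomal genes in the total, -5.57 without the top D14 cell and -2.65 without cells at 1000 CPM or more.

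The ratio of D21 over D14 for the summed members (-1.28) was -2.31 and -0.78 with mitochondrial limits of 5% and 20%, -0.81 with all barcodes, -0.87 as a mean per cell, -0.12 without the top 5%, -0.99 with median-of-ratios, -1.04 with TMM, -0.95 thinned, -1.01 without the top D14 cell and -0.27 without cells at 1000 CPM or more. These ratios kept their sign. Medians over cells gave no ratio, since the D14 median is 0. The 2 ratios that reversed without 1 cell were MT1H in dividing cells (-2.79, a bound) and MT1X in cluster 2 (-0.57). Where not shown by the construction of the alternative, the cause was not tested. Of the levels by class, 29 kept within their interval under marker gates and 13 did not. The CM gate moved D8 most, with MT2A at 445 CPM in place of 129, MT1G at 211 in place of 34.4, MT1X at 199 in place of 20.9 and MT1E at 171 in place of 28.5, in 1057 cells in place of 493. Its D14 cells were 2557 of 3585 and its D21 cells 1944 of 1946, nearly all of that day. In these gated cells, which are not only CM-like, MT1X was lower, not higher, at D21 than at D14.

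With 1 library per day the spread between CCOs is unknown, and a few cells of very high level carry much of the D8 and D14 sums. Alternatives without the top cell of a group or without cells at 1000 CPM or more, and the 20% mitochondrial limit for CM-like cells, under which the D21 over D14 ratios were 0.93 for MT1X and 2.86 for MT1E, and the D14 levels by class without such cells, were chosen after seeing the data.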
